A study of Mus musculus with 12 samples.

Results

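A set of 8 genes of fetal growth control that are imprinted in the mouse was followed through obstruction of the kidney: H19, Igf2, Igf2r, Dlk1, Meg3, Peg3, Plagl1 and Mest. They are the 8 rows with these symbols among the 55471 gene rows of the deposited expression table. The study sequenced messenger RNA libraries from the left kidney of mice of the strain C57/BL6, aged 8 to 12 weeks, that either carried or lacked Sprr2f, which encodes one of the small proline-rich proteins known from the barrier of the skin. In unilateral ureteral obstruction (UUO) a microvascular clamp on the left ureter stops the outflow of urine. The groups were Sprr2f knockout kidneys at day 5 of UUO (n = 3), wild type kidneys at day 5 (n = 3), knockout kidneys at day 0 (n = 4) and wild type kidneys at day 0 (n = 2). The labels do not say whether day 0 kidneys were sham-operated or untouched, and give no sex for any mouse. They name separate samples and no animals, so that a p-value measures the spread of these samples, which may be technical where samples share a mouse; the Y-linked transcripts described below differ within 3 of the 4 groups, which therefore hold more than 1 mouse each. A piece of each kidney was sequenced in bulk, where fewer cells of a type and less RNA per cell cannot be told apart.

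Imprinted genes are expressed mainly from the copy inherited from one parent, and many of those that act on growth are abundant in fetal tissue and are silenced to a low level after birth. H19, a noncoding RNA of the maternal copy, shares a domain with Igf2, which encodes insulin-like growth factor 2 and is expressed from the paternal copy, while Igf2r encodes the receptor that carries this factor to the lysosome for degradation. Meg3, a maternal noncoding RNA, and Dlk1, a paternal gene for a membrane protein with EGF-like repeats, form another domain, and Peg3, Plagl1 and Mest are paternal genes that encode a zinc finger protein, a zinc finger transcription factor and a hydrolase of the endoplasmic reticulum. The counts do not separate the parental copies, so the allele of origin could not be read.

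The sequences that bear on the genes that moved are the microRNAs made from H19, which share its transcript, and the promoters of the members that passed the test and have an entry in the RefSeq promoter table (GRCm38.p6): Meg3, Plagl1 and Igf2r. The hairpin of both miR-675 strands lies in exons of H19 (chr7:142575529-142578143, minus strand) in 3 of its 7 annotated transcripts, miR-675-5p at chr7:142577112-142577133 and miR-675-3p at chr7:142577078-142577099, and their seed (bases 2 to 8) is in capitals. The promoters run from 250 bases before to 50 after a start site, on the strand of the gene, and capitals mark the letters of TGCCGC, the hexamer bound by the imprint-maintaining protein ZFP57. Where a printed window holds it, the hexamer lies on the strand opposite to the gene and is therefore read as GCGGCA. The Meg3 window, the upstream one of 2 entries, is chr12:109540746-109541045 (plus strand), the Plagl1 window chr10:13090582-13090881 (plus strand, at a start site within the annotated gene) and the Igf2r window chr17:12769657-12769956 (minus strand).
miR-675-5p: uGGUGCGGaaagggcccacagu
miR-675-3p: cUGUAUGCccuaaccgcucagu
Meg3: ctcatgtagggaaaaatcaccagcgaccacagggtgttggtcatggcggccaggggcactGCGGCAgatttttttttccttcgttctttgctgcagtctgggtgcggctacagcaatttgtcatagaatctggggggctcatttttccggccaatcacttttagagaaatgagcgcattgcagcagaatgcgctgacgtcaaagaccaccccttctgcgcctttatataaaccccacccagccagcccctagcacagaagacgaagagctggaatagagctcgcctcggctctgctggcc
Plagl1: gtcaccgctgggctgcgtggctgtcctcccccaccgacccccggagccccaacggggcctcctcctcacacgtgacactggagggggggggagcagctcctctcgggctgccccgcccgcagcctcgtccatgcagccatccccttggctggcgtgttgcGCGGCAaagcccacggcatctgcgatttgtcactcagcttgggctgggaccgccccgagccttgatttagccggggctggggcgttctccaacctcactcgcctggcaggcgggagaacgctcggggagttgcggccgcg
Igf2r: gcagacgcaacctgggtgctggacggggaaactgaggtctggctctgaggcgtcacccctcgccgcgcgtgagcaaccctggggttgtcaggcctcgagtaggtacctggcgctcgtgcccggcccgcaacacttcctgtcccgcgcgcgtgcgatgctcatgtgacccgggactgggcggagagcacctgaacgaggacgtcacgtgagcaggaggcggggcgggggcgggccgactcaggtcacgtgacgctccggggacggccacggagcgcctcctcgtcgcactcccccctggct
The 2 microRNA strands have unlike seeds, GGUGCGG in miR-675-5p and UGUAUGC in miR-675-3p. The hexamer, searched on both strands, occurs once in the Meg3 window, once in the Plagl1 window and in none of the Igf2r window, and 11.6% of 32851 RefSeq promoter windows of this length hold it. The windows held 13 (Meg3), 26 (Plagl1) and 34 (Igf2r) CpG dinucleotides, against a median of 7 over all promoter windows. The Meg3 window also holds TATAAA, the letters of a TATA box, which 13.6% of the promoter windows hold. The other Meg3 entry (chr12:109545148-109545447, not printed) held 0 hexamers, 0 TATAAA and 1 CpG. A match of letters is a description of the window only. The row of Mir675 itself held 0 reads in all 12 libraries, and messenger RNA libraries do not measure mature microRNAs.

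The libraries held 16567256 to 19398882 reads counted to genes, and the deposited unit is CPM, reads scaled so that a library sums to 1000000. Sprr2f, the targeted gene, stood at 0, 2.17 and 4.07 CPM in knockout kidneys at day 5, against 27.1, 26.9 and 58.8 CPM in wild type kidneys at day 5. At day 0 it was at most 0.262 CPM in the 4 knockout libraries and at most 0.106 CPM in both wild type libraries, where it checks no label. Y-linked transcripts were present (112 to 170 summed CPM) in knockout day 5 replicate 2, wild type day 5 replicate 3, all 4 knockout day 0 libraries and wild type day 0 replicate 1, and at most 0.979 summed CPM in the other 5, which held Xist instead. The series title speaks of female mice, but Y-linked transcripts with Xist at most 2.11 CPM are the pattern of male kidneys. The other 5 libraries, with 481 to 893 CPM of Xist, have that of female kidneys. In the knockout, day and this pattern of sex coincided in all but 1 library, so that their parts are told apart only through that library and the wild type. The kidney markers Umod, Pax2, Pax8, Cdh16, Slc12a1 and Slc12a3 were present in all 12 libraries. At day 5 proximal tubule markers were lower (6 of 6 genes in either genotype) and all 10 fibroblast and pericyte markers higher in either genotype. Of the 6 myofibroblast markers 5 were higher in knockout and 6 in wild type kidneys, and of the 8 leukocyte markers 6 in knockout and 7 in wild type kidneys.

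On the scale of deposited CPM per kilobase of annotated exon, the levels of the members spanned a wide range over the 12 libraries. Igf2r led with a mean of 13.9 CPM per kb (12.3 to 16.6), and its lowest library lay above the highest of any other member. Peg3 (mean 3.21 CPM per kb, 1.57 to 5.10), H19 (2.40, 0 to 8.68), Plagl1 (1.87, 0.942 to 2.91), Meg3 (1.06, 0.113 to 3.02) and Mest (0.754, 0.398 to 1.55) followed in that order of means, and the ranges of neighbours in it overlapped. Dlk1 was low, with a mean of 0.177 CPM per kb (0.0187 to 0.423), and its range touched that of Mest. Igf2 was lowest, with a mean of 0.00465 CPM per kb (0 to 0.0183).

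Obstruction was followed by higher levels of the 2 noncoding RNAs of the set. In knockout kidneys 4 of the 7 members tested passed the test, where 54.8% of all 18093 genes tested did: H19, Meg3 and Plagl1 rose (29.4% of all genes rose) and Igf2r fell (25.4% fell). In wild type kidneys 3 of 7 passed, where 47.1% of all genes did: H19 and Meg3 rose (24.5%) and Igf2r fell (22.6%). Without wild type day 0 replicate 1, 1 of the 7 passed in wild type kidneys. The share of members that passed is near that of all genes. H19 and Meg3 had the largest changes of the list: 99.3% of all tested genes had a smaller log2 fold change than H19 in either genotype, and 98.8% (knockout) and 98.0% (wild type) a smaller one than Meg3. The median log2 fold change of the 7 members was 0.60 in knockout and 0.21 in wild type kidneys, against 0.07 and 0.04 over all genes tested. Genes were tested with limma on log2(scaled CPM + 0.5), where scaled CPM is the deposited value over the library's TMM scaling factor, and were called at an adjusted p (Benjamini-Hochberg) under 0.05. Day 5 and day 0 were compared within each genotype, and the 2 comparisons share no library.

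**Figure D1:**
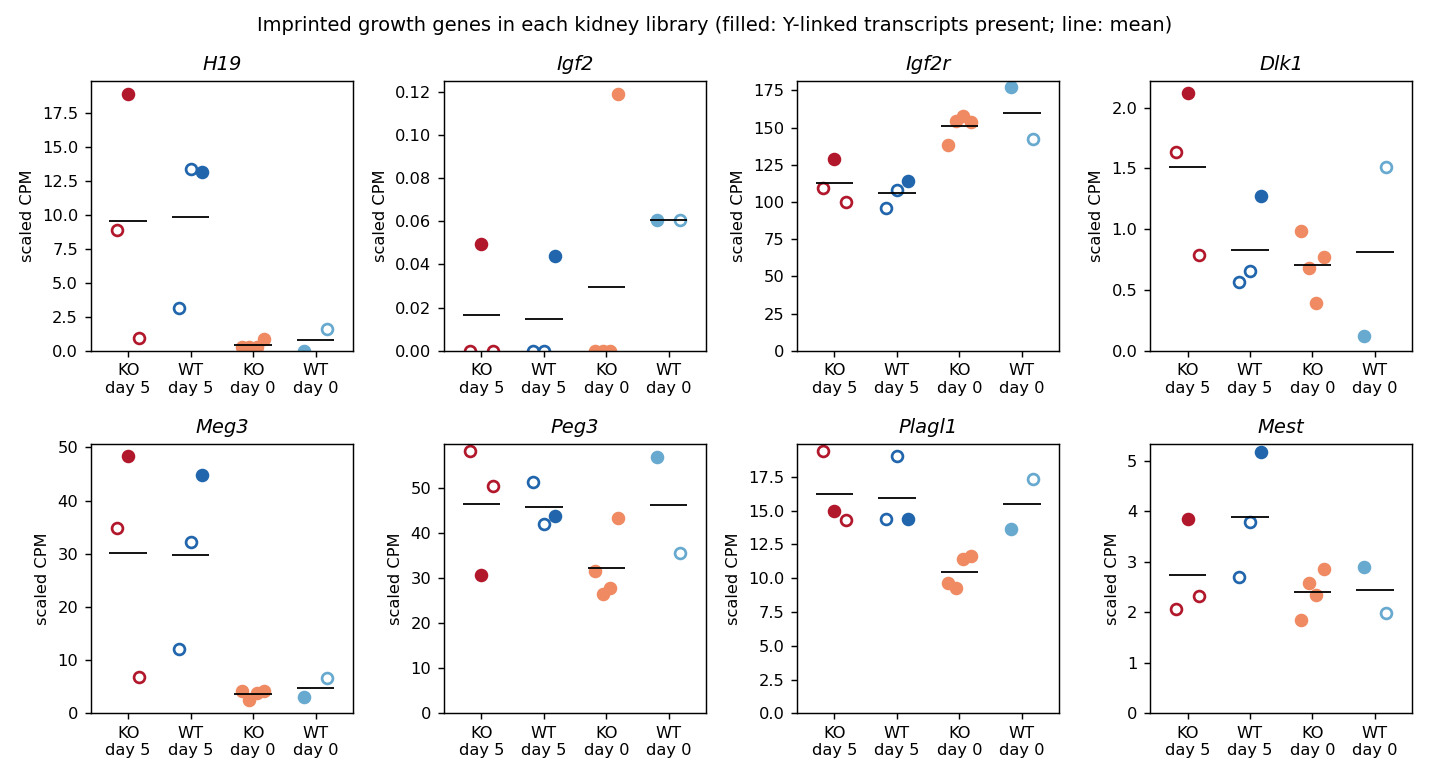
Scaled CPM of the 8 members (vertical axes, linear, from 0) in each library, by group of genotype and day (horizontal axes); a point is a library, a line the group mean, and filled points hold Y-linked transcripts. Meg3 stood between 6.92 and 48.4 in the day 5 libraries and between 2.58 and 6.65 at day 0, while Igf2 held no more than 0.119 anywhere.

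H19, a noncoding RNA, was among the first imprinted genes found in the mouse. Its scaled CPM was 8.91, 18.9 and 0.929 in knockout kidneys at day 5, against 0.309, 0.304, 0.259 and 0.893 in knockout kidneys at day 0. Wild type kidneys had 3.17, 13.4 and 13.1 at day 5, against 0 and 1.57 at day 0. Within each genotype every day 5 library lay above every day 0 library (as did 29.5% of all genes in knockout and 34.4% in wild type kidneys, and 55.1% and 65.1% did not overlap in one direction or the other), but knockout day 5 replicate 3 lay barely above the highest knockout library at day 0 and below wild type day 0 replicate 2. H19 rose by 2.81 ± 0.78 (SE) on the log2 scale in knockout kidneys (limma, adjusted p = 0.00831) and by 3.12 ± 0.93 in wild type kidneys (adjusted p = 0.0145).

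Because H19 was so low at day 0, its fold depends on the constant added before the logarithm, and reads were also compared directly. In knockout kidneys 606 reads at day 5 stood against 28 at day 0, which is 28.2 times as many relative to depth (95% exact interval 19.3 to 42.8, counting error only). This ratio was 15.2 without knockout day 5 replicate 2 and 44.8 without knockout day 0 replicate 4. In wild type kidneys 632 reads stood against 26, a ratio of 16.9 (11.4 to 26.0). Those 26 reads all came from wild type day 0 replicate 2, since replicate 1 had 0 reads, which allows up to 0.159 CPM; the ratio was 8.33 without replicate 1. Without replicate 2 no read was left, with an exact 95% lower limit of 60.1. With the floor of 3 reads in place of 0 the ratio was 74.1, which lies above that limit and is no minimum. Without wild type day 0 replicate 1, the wild type change of H19 was 2.09 on the log2 scale and no longer passed (limma, adjusted p = 0.163).

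Meg3, the maternal noncoding RNA of the Dlk1 domain, had 34.9, 48.4 and 6.92 scaled CPM in knockout kidneys at day 5, against 4.14, 2.58, 3.82 and 4.17 in knockout kidneys at day 0. Wild type libraries held 12.2, 32.1 and 44.9 scaled CPM at day 5, against 3.03 and 6.65 at day 0. All 6 libraries of day 5 lay above all 6 of day 0, as in 22.1% of all genes (41.6% did not overlap in one direction or the other), with knockout day 5 replicate 3 and wild type day 5 replicate 1 nearest to day 0. Meg3 rose by 2.51 ± 0.57 on the log2 scale in knockout kidneys (limma, adjusted p = 0.00248) and by 2.40 ± 0.68 in wild type kidneys (adjusted p = 0.0112). The wild type change was 1.89 and did not pass without wild type day 0 replicate 1 (adjusted p = 0.105), and the knockout change was 3.33 without knockout day 5 replicate 3. Of the 50-base words of the Meg3 transcripts 10.4% also occur in transcripts of other annotated genes, so that part of its reads may have been counted elsewhere or not at all.

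**Figure D2:**
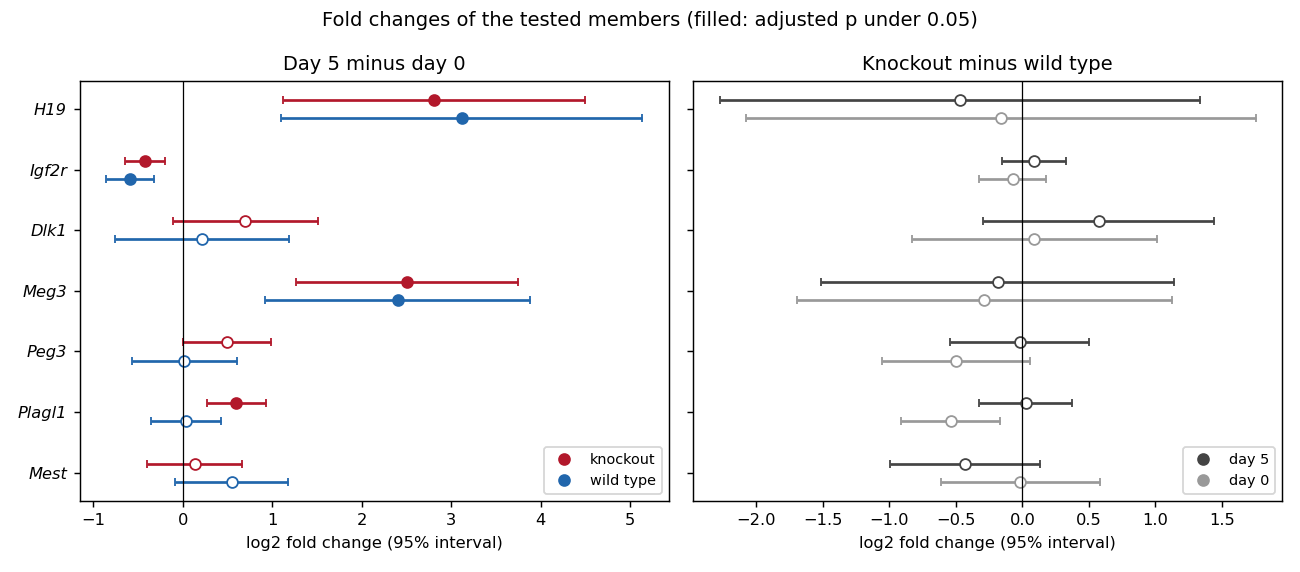
Log2 fold changes (horizontal axes, 95% limma intervals) of the 7 members tested: day 5 minus day 0 by genotype on the left, knockout minus wild type by day on the right; filled points passed at an adjusted p under 0.05. H19 and Meg3 lie at 2.81 and 2.51 in knockout and at 3.12 and 2.40 in wild type kidneys on the left, and no point on the right is filled.

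Igf2r, the clearing receptor for IGF2, was the member that fell. It had 109.7, 129 and 100.2 scaled CPM in knockout kidneys at day 5, against 138, 155, 158 and 153 in knockout kidneys at day 0. The wild type values were 96.2, 108 and 114 scaled CPM at day 5, against 177 and 142 at day 0. Every library of day 5 lay below every library of day 0, as in 19.5% of all genes, and within knockout and within wild type kidneys 25.6% and 30.7% of all genes did so. Igf2r fell by 0.42 ± 0.10 on the log2 scale in knockout kidneys (limma, adjusted p = 0.00387) and by 0.58 ± 0.12 in wild type kidneys (adjusted p = 0.00183). The fall is one relative to the bulk of genes: in deposited CPM, where the median gene stands 0.38 (knockout) and 0.37 (wild type) higher on the log2 scale than after TMM scaling, the change was 0.03 in knockout and -0.16 in wild type kidneys (adjusted p = 0.833 and 0.254) and the libraries of both days overlapped.

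Plagl1, a zinc finger transcription factor that induces other imprinted genes in mouse, had 19.4, 14.98 and 14.3 scaled CPM in knockout kidneys at day 5, against 9.64, 9.26, 11.4 and 11.7 in knockout kidneys at day 0. Wild type levels were 14.4, 19.05 and 14.4 scaled CPM at day 5, against 13.7 and 17.3 at day 0. The knockout groups did not overlap, as in 55.1% of all genes (29.5% with every day 5 library above), and the wild type groups did. Plagl1 rose by 0.60 ± 0.15 on the log2 scale in knockout kidneys (limma, adjusted p = 0.00464), while the wild type value was 0.04 ± 0.18 (adjusted p = 0.890). The difference between these changes was 0.56 ± 0.24 and did not pass (interaction, adjusted p = 0.637), so that the response is not shown to differ between genotypes. Y-linked transcripts were held by 1 of 3 knockout libraries at day 5 and by all 4 at day 0. With their level as a covariate the knockout change of Plagl1 was 0.48 (limma, adjusted p = 0.0216). This adjustment rests on 1 knockout library and the wild type, so that it cannot settle the parts of day and of this pattern.

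Peg3, Dlk1 and Mest did not pass in either genotype. Peg3, a zinc finger protein of the paternal copy, had 58.1, 30.7 and 50.4 scaled CPM in knockout kidneys at day 5, against 31.5, 26.3, 27.9 and 43.2 at day 0, and the groups overlapped because knockout day 5 replicate 2 was low. Its log2 fold change was 0.50 ± 0.23 in knockout (limma, adjusted p = 0.0804) and 0.02 ± 0.27 in wild type kidneys (adjusted p = 0.965). Without knockout day 5 replicate 2 the knockout change was 0.77 and passed (adjusted p = 0.00702), and without knockout day 0 replicate 4 it was 0.62 and passed (adjusted p = 0.0326). Peg3 in wild type kidneys had 51.1, 42.0 and 43.8 scaled CPM at day 5, against 56.7 and 35.6 at day 0.

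Dlk1, which is a precursor cell gene in many tissues, rested on few reads, 17 to 43 per library in knockout kidneys at day 5 and 6 to 16 in knockout kidneys at day 0. Its scaled CPM was 1.63, 2.12 and 0.790 in knockout kidneys at day 5, against 0.989, 0.683, 0.389 and 0.774 at day 0. Wild type libraries stood at 0.567, 0.655 and 1.27 at day 5, against 0.121 and 1.51 at day 0, so that the 2 day 0 libraries enclosed those of day 5. The log2 fold change was 0.70 ± 0.37 in knockout (limma, adjusted p = 0.131) and 0.21 ± 0.45 in wild type kidneys (adjusted p = 0.726), so that no change passed on this scale. In deposited CPM the knockout change was 0.99 and passed (adjusted p = 0.0305).

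Mest, the host gene of miR-335, had 2.07, 3.84 and 2.32 scaled CPM in knockout kidneys at day 5, against 1.85, 2.58, 2.33 and 2.86 at day 0. Wild type libraries had 2.69, 3.78 and 5.17 scaled CPM at day 5, against 2.91 and 1.99 at day 0, and the groups overlapped in both genotypes. Its log2 fold change was 0.13 ± 0.24 in knockout (limma, adjusted p = 0.668) and 0.55 ± 0.29 in wild type kidneys (adjusted p = 0.141). With the Y-linked level of each library as a covariate the wild type change was 0.66 and passed (adjusted p = 0.0181). Mest shares 23.1% of its exonic bases with Copg2 on the opposite strand, which stood at 30.1 to 41.8 CPM, and the strand setting of the counting is not given in the sources used here, so that reads of the 2 genes may be mixed.

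Igf2, the growth factor of the set, was removed by the filter on low values and entered no fit. The 6 libraries of day 5 held 2 reads in all and the 6 of day 0 held 4, and the difference in mean CPM, 0.0179 at day 5 against 0.0353 at day 0, gave p = 0.545 in an exact two-sided permutation test over 924 splits. At these depths 3 reads correspond to 0.155 to 0.181 CPM per library. The row is a poor measure of the gene, since 62.8% of its exonic bases also belong to the readthrough gene Gm49394 on the same strand, and a read in shared exons may have been counted to neither. Gm49394 was listed at 0 in all libraries.

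Averaged over genotypes, 63.0% of all genes passed, and 4 of the 7 members did. H19 rose by 2.97 ± 0.61 (limma, adjusted p = 0.000882), Meg3 by 2.46 ± 0.45 (adjusted p = 0.000348) and Plagl1 by 0.32 ± 0.12 (adjusted p = 0.0312) on the log2 scale, and Igf2r fell by 0.50 ± 0.08 (adjusted p = 0.000125). The average for Plagl1 did not pass without the filter on low values (0.31, adjusted p = 0.0612), with the Y-linked covariate (0.24, adjusted p = 0.0993) or when any of 5 single libraries was left out. These were knockout day 5 replicate 1 (0.25, adjusted p = 0.0755), wild type day 5 replicate 2 (0.25, adjusted p = 0.0801), knockout day 0 replicates 1 (0.29, adjusted p = 0.0587) and 2 (0.28, adjusted p = 0.0641) and wild type day 0 replicate 1 (0.22, adjusted p = 0.174), so that 7 of 21 alternatives lost the call.

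The question of the study, what the loss of Sprr2f changes in the obstructed kidney, was put to the same genes. The 7 members did not pass between knockout and wild type kidneys at day 5, where limma called 0 genes of 18093 (0.0%; 1025 had an unadjusted p under 0.05, edgeR called 0 and DESeq2 40). The largest differences were 0.57 ± 0.40 for Dlk1 and -0.47 ± 0.83 for H19, with 95% intervals of -0.29 to 1.44 and -2.27 to 1.33 on the log2 scale. In the day 5 comparison no member was free of overlap between genotypes, where 9.93% of all genes were (5.72% with every knockout library above and 4.21% below). The interval for Meg3 was -1.51 to 1.14, so that differences within it could not be detected with these libraries. For Igf2r and Plagl1 the intervals were narrower, -0.15 to 0.33 and -0.32 to 0.38.

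At day 0 none of the 7 members passed either, where 0.0166% of all genes did (limma; 2709 had an unadjusted p under 0.05). Plagl1 had the lowest unadjusted p, 0.00795, with 9.64, 9.26, 11.4 and 11.7 scaled CPM in knockout kidneys against 13.7 and 17.3 in wild type kidneys. The 4 knockout libraries lay below both wild type libraries, as 12.4% of all genes did (25.3% did not overlap in one direction or the other), and the log2 difference was -0.54 ± 0.17 (adjusted p = 0.189). The difference for Peg3 was -0.50 ± 0.26 (adjusted p = 0.377). The interaction of genotype and day passed in 0.00553% of all genes and in no member.

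The neighbours of the members in their imprinted domains were read beside them. Of 18 listed neighbours 10 were tested, and 5 rose, 3 fell and 2 did not pass in knockout kidneys, while 3 rose, 3 fell and 4 did not pass in wild type kidneys. Of all genes tested 29.4% rose and 25.4% fell in knockout kidneys, and 24.5% rose and 22.6% fell in wild type kidneys. The median log2 fold change of the 10 neighbours was 0.47 in knockout and 0.02 in wild type kidneys. Those that rose numbered 3 in knockout kidneys without knockout day 0 replicate 2, and 1 in wild type kidneys without wild type day 0 replicate 1. In the Meg3 domain, Rian, a maternal noncoding RNA downstream of Meg3 that hosts small nucleolar RNAs, had 15.2, 25.9 and 2.09 scaled CPM in knockout kidneys at day 5, against 1.17, 0.683, 1.10 and 1.31 at day 0. Wild type libraries had 5.62, 15.5 and 19.8 scaled CPM at day 5, against 0.787 and 1.51 at day 0. The order of the day 5 libraries was that of Meg3 in both genotypes, with knockout day 5 replicate 3 lowest. Rian rose by 2.73 ± 0.63 in knockout (limma, adjusted p = 0.00281) and by 2.97 ± 0.76 in wild type kidneys (adjusted p = 0.00604) on the log2 scale.

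Mirg, a further maternal noncoding RNA of this domain that hosts microRNAs, rose in knockout kidneys (log2 1.06 ± 0.32, limma, adjusted p = 0.0128) and had a wild type value of 0.91 ± 0.38 (adjusted p = 0.0656). Mirg rested on few reads, 62 at day 5 against 10 at day 0 in knockout and 55 against 6 in wild type kidneys. Its day 0 levels, at most 0.304 scaled CPM, lay below the 0.5 CPM added before the logarithm. Dio3, the deiodinase that inactivates thyroid hormone and a paternal gene of the domain, had 1.23, 7.34 and 0.650 scaled CPM in knockout kidneys at day 5, against 0.494, 0.228, 0.907 and 0.298 at day 0, and these groups overlapped. Wild type libraries had 2.08, 2.57 and 6.27 scaled CPM at day 5, against 0.303 and 0.302 at day 0, and did not overlap. In wild type kidneys 65.1% of all genes did not overlap, 34.4% with every day 5 library above. Dio3 rose by 1.40 ± 0.54 in knockout (adjusted p = 0.0439) and by 2.23 ± 0.65 in wild type kidneys (adjusted p = 0.0126). In knockout kidneys this rested largely on 1 library: the ratio of reads relative to depth was 8.30, and 2.69 without knockout day 5 replicate 2. Begain, a gene for a synaptic scaffold partner at the edge of the domain, rose by 1.88 ± 0.25 in knockout and by 1.38 ± 0.30 in wild type kidneys. Rtl1, a paternal gene of the domain, did not pass the filter on low values.

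At the Igf2r domain Airn, the paternal antisense RNA that overlaps Igf2r, fell by 1.58 ± 0.24 in knockout (limma, adjusted p = 0.000140) and by 0.92 ± 0.29 in wild type kidneys (adjusted p = 0.0201). Its scaled CPM was 4.81, 3.94 and 3.67 in knockout kidneys at day 5, against 10.3, 13.1, 18.5 and 12.6 at day 0. Wild type libraries had 5.01, 4.28 and 3.33 scaled CPM at day 5, against 11.9 and 5.74 at day 0. Airn and Igf2r both fell on this scale, while in deposited CPM the knockout groups of Airn stayed apart and the wild type groups overlapped. In scaled CPM 25.6% of all genes had every knockout library of day 5 below those of day 0. Slc22a2, an organic cation transporter of the proximal tubule in the same domain, fell by 2.04 ± 0.21 in knockout and by 1.94 ± 0.25 in wild type kidneys. At the Peg3 domain Zim1, a maternal zinc finger gene, rose by 0.77 ± 0.25 in knockout kidneys (adjusted p = 0.0214), with a wild type value of -0.08 ± 0.30 (adjusted p = 0.848). Copg2, a coatomer subunit gene that overlaps Mest, fell by 0.26 ± 0.09 in knockout and by 0.36 ± 0.10 in wild type kidneys, and in deposited CPM its days overlapped.

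**Figure D3:**
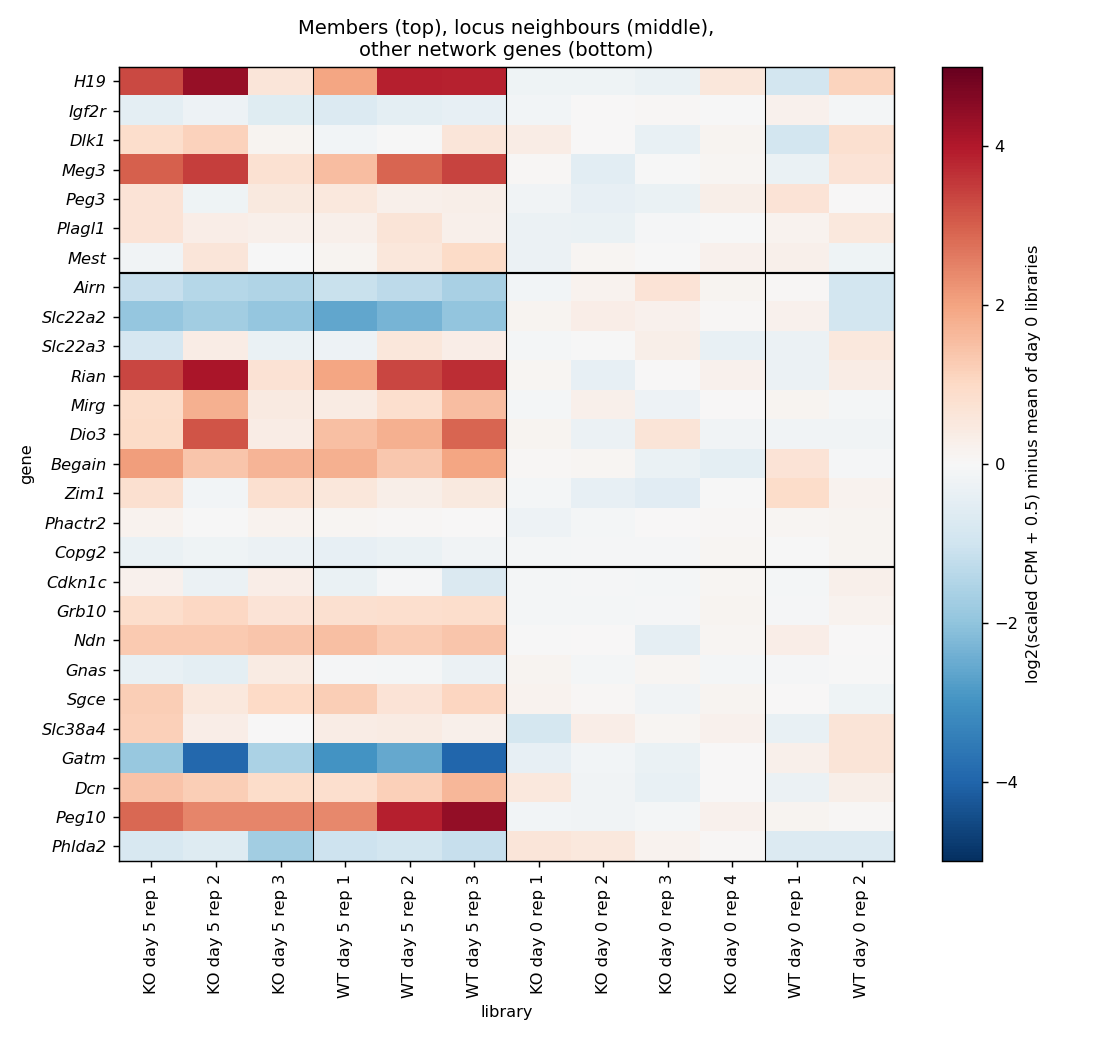
Log2(scaled CPM + 0.5) minus the mean of the 6 day 0 libraries (colour scale, from 5 below to 5 above) for the tested members, their domain neighbours and 10 further genes of the imprinted growth network (rows), in each library (columns). H19, Meg3 and Rian are high in the same day 5 libraries and lowest among these in knockout day 5 replicate 3 (H19 0.60 above the day 0 mean).

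Of 10 further genes that are commonly grouped with the members as an imprinted growth network, 5 rose, 2 fell and 3 did not pass in knockout kidneys, and 5 rose, 1 fell and 4 did not pass in wild type kidneys. Their median log2 fold change was 0.73 in knockout and 0.50 in wild type kidneys. Over all genes tested 29.4% rose and 25.4% fell in knockout kidneys, and 24.5% rose and 22.6% fell in wild type kidneys. Within the network list the named genes moved as follows. Peg10, a retrotransposon-derived gene of the placenta, rose most, by 2.63 ± 0.35 in knockout (limma, adjusted p = 4.50e-05) and by 3.47 ± 0.42 in wild type kidneys (adjusted p = 2.57e-05). Ndn, a growth suppressor of the MAGE family, rose by 1.41 ± 0.16 in knockout and by 1.21 ± 0.19 in wild type kidneys. Grb10, an adaptor that dampens insulin and IGF1 receptor signalling, rose by 0.88 ± 0.10 in knockout and by 0.78 ± 0.12 in wild type kidneys. Gatm, the enzyme of the first step of creatine synthesis, which is abundant in proximal tubule, fell by 2.24 ± 0.46 in knockout and by 3.62 ± 0.55 in wild type kidneys. Cdkn1c, a cell cycle inhibitor of the maternal copy, did not pass (0.12 ± 0.18 in knockout and -0.45 ± 0.22 in wild type kidneys).

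The network genes moved in both directions, and so did imprinted genes outside it. Of 40 other imprinted genes 32 were tested, with 10 higher, 9 lower and 13 not passing in knockout kidneys and 7 higher, 12 lower and 13 not passing in wild type kidneys. Their medians, -0.02 and 0.01, lay near those of all genes. The shares of all genes tested were 29.4% higher and 25.4% lower in knockout kidneys, and 24.5% higher and 22.6% lower in wild type kidneys. Tnfrsf23, a decoy receptor for TRAIL in mouse, rose by 2.16 ± 0.28 in knockout and by 2.36 ± 0.33 in wild type kidneys, while Slc22a18, an organic cation transporter-like gene, fell by 2.10 ± 0.10 in knockout and by 2.23 ± 0.12 in wild type kidneys (limma, all 4 adjusted p at or below 8.09e-05). Ampd3, an AMP deaminase, rose by 1.34 ± 0.10 in knockout and by 0.76 ± 0.12 in wild type kidneys. Trappc9, a trafficking complex subunit, fell by 1.04 ± 0.11 in knockout and by 0.79 ± 0.13 in wild type kidneys. Without wild type day 0 replicate 1, 7 rather than 12 fell in wild type kidneys. In deposited CPM 18 of these genes passed as higher and 3 as lower in knockout kidneys, and 17 and 4 in wild type kidneys. On that scale the median gene stands 0.38 (knockout) and 0.37 (wild type) higher than after TMM scaling, in log2 units. The share of all genes that passed as higher there is not given here.

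Genes of the IGF axis, the receptors, binding proteins and their regulators, moved in both directions. Of 20 genes of the IGF axis 4 rose, 6 fell and 10 did not pass in knockout kidneys (median -0.03), and 2 rose, 6 fell and 12 did not pass in wild type kidneys (median -0.40). Of all genes tested 29.4% rose and 25.4% fell in knockout kidneys, and 24.5% rose and 22.6% fell in wild type kidneys. The direction of the IGF list depends on the scaling. In deposited CPM 9 of its genes rose and 0 fell in knockout kidneys, and 5 rose and 1 fell in wild type kidneys. There the median gene stands 0.38 (knockout) and 0.37 (wild type) higher on the log2 scale than after TMM scaling. The share of all genes that rose in deposited CPM is not given here. Stc2, stanniocalcin 2, which inhibits the protease that frees IGF from its binding proteins, rose by 1.70 ± 0.18 in knockout (limma, adjusted p = 6.78e-06) and by 1.59 ± 0.22 in wild type kidneys (adjusted p = 7.15e-05). Igf2bp2, an RNA-binding protein that binds Igf2 messenger RNA, rose by 1.14 ± 0.15 in knockout and by 0.80 ± 0.18 in wild type kidneys. The binding protein genes Igfbp1 and Igfbp4 fell, Igfbp1 by 1.11 ± 0.36 in knockout and by 1.78 ± 0.43 in wild type kidneys and Igfbp4 by 0.53 ± 0.11 in knockout and by 0.59 ± 0.13 in wild type kidneys.

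Genes of the embryo and of nephron progenitors were listed as a further group. Of 14 listed, 10 were tested, with 2 higher, 2 lower and 6 not passing in knockout kidneys, where 54.8% of all genes passed, and 2 higher, 0 lower and 8 not passing in wild type kidneys, where 47.1% did. Gpc3, a glypican that restrains fetal growth, rose by 2.02 ± 0.16 in knockout (limma, adjusted p = 5.28e-07) and by 1.53 ± 0.19 in wild type kidneys (adjusted p = 3.54e-05). Hmga2, a chromatin protein of embryonic growth, rose by 1.13 ± 0.32 in knockout and by 1.95 ± 0.38 in wild type kidneys. Igf2bp1, an RNA-binding protein of the embryo, fell by 0.81 ± 0.24 and Afp, the fetal serum protein alpha-fetoprotein, by 0.54 ± 0.19 in knockout kidneys (adjusted p = 0.0121 and 0.0283), with wild type values of -0.52 ± 0.29 and -0.27 ± 0.23 (adjusted p = 0.161 and 0.360). In deposited CPM 5 rose and 0 fell in knockout kidneys and 4 rose in wild type kidneys. The median gene stands 0.38 (knockout) and 0.37 (wild type) higher there on the log2 scale than after TMM scaling. The share of all genes that rose in deposited CPM is not given here.

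Of 16 genes in a list for imprint maintenance, 15 were tested. Not all of them maintain imprints, since the list also holds Dnmt3a, Dnmt3b, Dnmt3l and the Tet genes, which act in setting or removing DNA methylation. In knockout kidneys 6 rose, 0 fell and 9 did not pass (median 0.27), and in wild type kidneys 7 rose, 1 fell and 7 did not pass (median 0.26). Of all genes tested 29.4% rose and 25.4% fell in knockout kidneys, and 24.5% rose and 22.6% fell in wild type kidneys. In deposited CPM 13 genes of the list rose in either genotype. There the median gene stands 0.38 (knockout) and 0.37 (wild type) higher on the log2 scale than after TMM scaling. The share of all genes that rose in deposited CPM is not given here, so that this count cannot be told from a general shift. Uhrf1, which brings the maintenance methyltransferase to newly copied DNA, rose by 2.18 ± 0.18 in knockout and by 2.42 ± 0.22 in wild type kidneys (limma, adjusted p = 7.56e-07 and 2.29e-06). Zfp57, the zinc finger protein that binds the hexamer shown above, rose by 1.97 ± 0.20 in knockout and by 1.92 ± 0.24 in wild type kidneys (adjusted p = 4.15e-06 and 3.25e-05). Dnmt1, the maintenance methyltransferase, rose by 0.54 ± 0.08 in knockout and by 0.82 ± 0.10 in wild type kidneys. Trim28, the corepressor that ZFP57 recruits, rose by 0.57 ± 0.07 in knockout and by 0.48 ± 0.09 in wild type kidneys. In the limma fit of all 12 libraries no gene of these 6 lists passed in a comparison of genotypes or in the interaction.

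Across the 12 libraries H19 and Meg3 followed each other closely, as a description of libraries that share their depth, their scaling and the step between days. Pearson's r of their log2 levels was 0.983, and 0.954 after the mean of each group was removed. The gene most like Meg3 was Rian (r = 0.995, and 0.986 after removal of group means), the next H19, and the third Cd163, the haemoglobin scavenger receptor of macrophages (0.982). On levels, which carry the step between days, Cd163 was also the third most like H19 (0.970), after Meg3 and Rian (0.981). After removal of group means Cd163 was not among the 3 genes most like either: for H19 these were Cltc (0.956), Meg3 and Lpp (0.954), and for Meg3 they were Rian, H19 and Anapc4 (0.953). Peg3 was most like its neighbour Zim1 on levels (0.947), and after removal of group means most like Frem1 (0.943), with Zim1 next (0.933). On levels Igf2r was most like Hdlbp (0.964), Plagl1 most like Phf3 (0.974), Mest most like Sap30bp (0.925) and Dlk1 most like Fam25c (0.883).

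Marker lists for other cells of the kidney and its surroundings were set beside H19 and Meg3. All 10 fibroblast and pericyte markers rose in both genotypes. Their summed level was 2804 to 4262 CPM in knockout and 3173 to 4862 CPM in wild type kidneys at day 5, against 318 to 504 CPM in knockout and 409.7 to 500.3 CPM in wild type kidneys at day 0, and no marker was at 0 in any group. Among day 5 libraries knockout replicate 3 had the lowest sum, and wild type replicate 1 the lowest of its genotype, as for H19 and Meg3. The collagen genes Col1a1, Col1a2 and Col3a1 made up most of that sum, and single markers did not all follow this order. In knockout kidneys 5 of the 10 were lowest in replicate 3 of day 5 and 3 highest there, and in wild type kidneys 6 were lowest in replicate 1 and 3 highest there. Lum, which encodes a proteoglycan of fibrous tissue, stood at 42.0, 36.2 and 9.54 CPM in knockout kidneys and at 9.38, 31.9 and 39.4 CPM in wild type kidneys at day 5, lowest in these libraries. Pdgfrb, a receptor of pericytes and fibroblasts, stood at 148, 88.5 and 176 CPM in knockout kidneys and at 224, 127 and 133 CPM in wild type kidneys at day 5, highest in the same libraries. The part of fibroblasts in the changes of H19 and Meg3 was not tested.

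Of the 7 adipocyte markers 6 were tested, and 0 passed in knockout kidneys and 1 rose in wild type kidneys. Their summed level was 86.2 to 298 CPM in knockout and 212 to 384 CPM in wild type kidneys at day 5, against 62.8 to 136 CPM in knockout and 59.6 to 216 CPM in wild type kidneys at day 0. Adipoq, the fat hormone adiponectin, stood at 1.49, 13.4 and 0.0536 CPM in knockout kidneys and at 8.15, 12.6 and 14.98 CPM in wild type kidneys at day 5. At day 0 it stood at 4.82, 1.21, 3.73 and 1.83 CPM in knockout kidneys and at 0 and 8.73 CPM in wild type kidneys. The libraries with the least Adipoq of their day, knockout day 5 replicate 3 and wild type day 0 replicate 1, also had the least H19 of their day. Within knockout kidneys at day 0 the orders differed. There replicate 4 had the most H19 (0.893 scaled CPM) with 1.83 CPM of Adipoq. Replicates 1 and 3 had the most Adipoq (4.82 and 3.73 CPM) with 0.309 and 0.259 scaled CPM of H19. All 7 markers were lowest of their genotype at day 5 in knockout replicate 3 and in wild type replicate 1, and the part of fat tissue in the levels of H19 was not tested.

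Urothelial markers moved with day as well. Of 6, 5 rose in knockout kidneys (median log2 fold change 1.67) and 6 in wild type kidneys (2.09). Their summed level was 66.8 to 142 CPM in knockout and 73.3 to 269 CPM in wild type kidneys at day 5, against 10.4 to 28.3 CPM in knockout and 12.4 to 23.1 CPM in wild type kidneys at day 0, and none was at 0 in any group. Knockout day 5 replicate 3 had the lowest sum of day 5 and wild type day 5 replicate 1 the lowest of its genotype, with 4 of 6 markers lowest in knockout replicate 3 and 6 of 6 in wild type replicate 1. The part of urothelium in the changes of H19 and Meg3 was not tested. Leukocyte markers did not keep this order in wild type kidneys. Their summed CPM at day 5 was 739, 636 and 712 in wild type replicates 1, 2 and 3, and 6 of 8 markers were highest in replicate 1. In knockout kidneys it was 732, 894 and 687, with 2 of 8 markers lowest and 3 highest in replicate 3. The part of leukocytes was not tested either.

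Markers of the adrenal gland and of skeletal muscle, tissues in which several of these genes are abundant, were mixed, with several defining genes at or near 0. Cyp11b2 and Hsd3b6 of the adrenal cortex had 0 reads in all 12 libraries, Cyp11a1 reached 0.217 CPM and Nr5a1 0.181 CPM. The summed level of that list, 5.67 to 8.15 CPM at day 5 against 3.98 to 4.95 CPM at day 0, came mostly from Star, the cholesterol carrier of steroid synthesis, at 4.93 to 6.29 CPM at day 5 and 3.72 to 4.77 CPM at day 0. Mc2r, the receptor for corticotropin, was at most 1.69 CPM and rose by 0.90 ± 0.26 in knockout and by 1.27 ± 0.31 in wild type kidneys (limma, adjusted p = 0.0108 and 0.00467).

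Th of the adrenal medulla reached 0.361 CPM and Pnmt 0.0601 CPM, while Slc18a1, a vesicular monoamine transporter, stood at 36.1 to 54.6 CPM at day 5, against 154 to 226 CPM at day 0, and fell in both genotypes. Chga, the granule protein chromogranin A, reached 1.89 CPM and rose by 1.10 ± 0.38 in knockout kidneys (adjusted p = 0.0270), with a wild type value of 1.11 ± 0.46 (adjusted p = 0.0620). Of the skeletal muscle list Ckm reached 0.0556, Myh4 0.105, Myh1 1.84 and Acta1 3.56 CPM, and the 2 genes tested did not pass in either genotype. The part of adrenal and muscle tissue in the changes of the members was not tested.

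**Figure D4:**
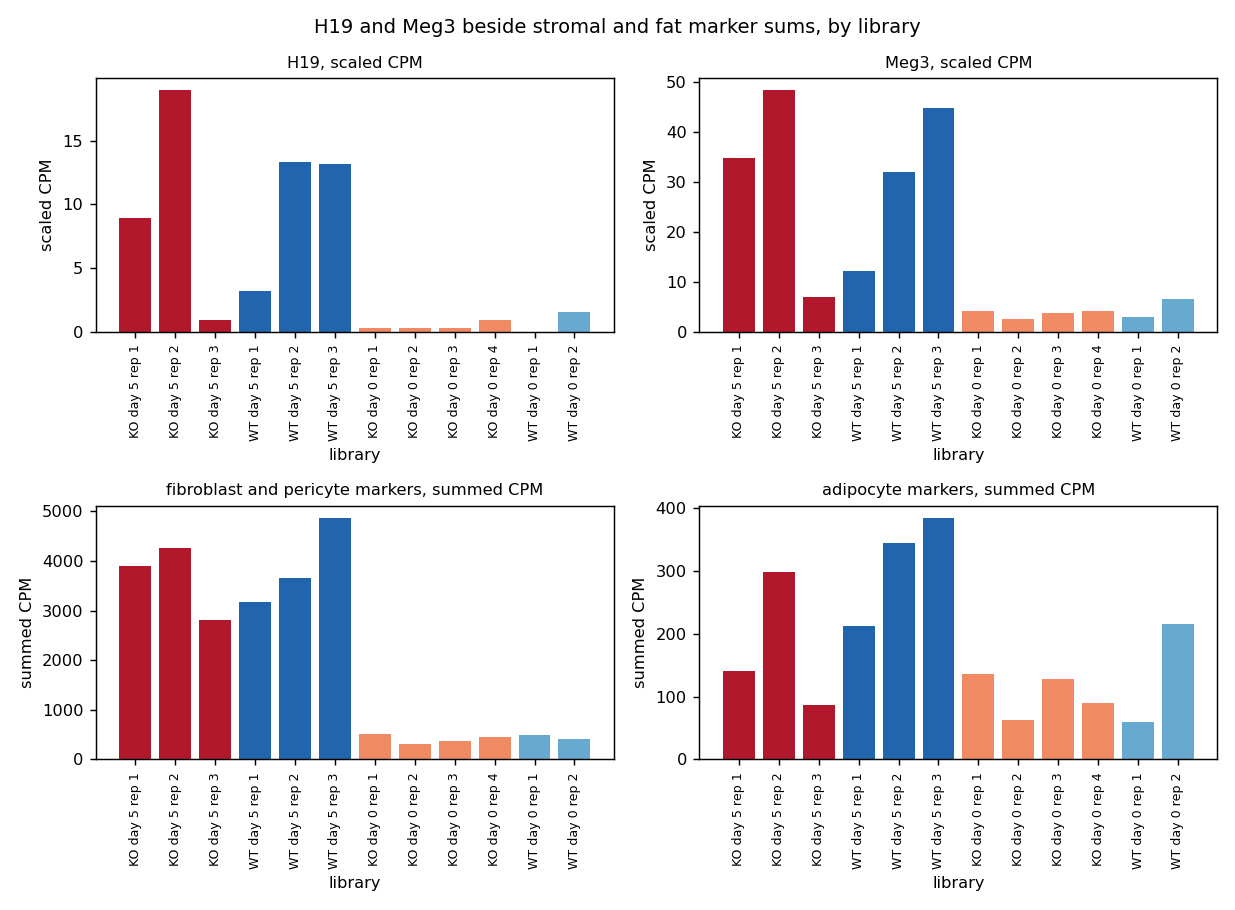
H19 and Meg3 (scaled CPM, upper panels) and the summed CPM of 10 fibroblast and pericyte markers and 7 adipocyte markers (lower panels), all on linear axes from 0, in each of the 12 libraries. Among the day 5 libraries knockout replicate 3 is lowest in all 4 panels, at 0.929 and 6.92 scaled CPM for H19 and Meg3 and at 2804 and 86.2 summed CPM for the markers.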

How the data were processed

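Left kidney RNA of 12 samples was made into messenger RNA libraries and read to 50 bases, per the labels' protocols. Per the submitters' processing notes, STAR, SAMtools and HTSeq were used with the build GRCm38.p6; versions, annotation release, strand setting and overlap mode are not given in the sources used here. The deposited values are CPM: every column of the authors' table sums to 1000000. Whole reads were recovered from the CPM steps (100% of 665652 values within 0.001 of a whole number), giving 16567256 to 19398882 reads per library. Coordinates are those of GENCODE M21 (GRCm38); 241 of the 55471 gene identifiers are not in it.

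The filterByExpr function, with a minimum count of 10 and a minimum total of 15, left 18093 genes with 99.9% of reads. Their CPM were scaled by TMM factors and put on the scale log2(CPM + 0.5). All 12 libraries entered one fit of 4 group means in limma 3.58.1 under R 4.3.3, its moderated variances following a trend on mean level. A fold change on this scale understates the change of low genes. P-values were adjusted over all 18093 genes by the Benjamini-Hochberg method and called at 0.05. The quasi-likelihood test of edgeR 4.0.16 on the recovered reads was an alternative and called 9832 genes in knockout and 8460 in wild type for day 5 against day 0, where limma called 9917 and 8527. Further alternatives were DESeq2 1.42.0, RLE factors, library size only, 0.1 or 1 CPM added, no filter, a CPM of 1 in 2 libraries, only the compared groups, the Y-linked level as a covariate, and each library left out in turn. The fit was also run on simulated data in which all genes had the same spread, which does not cover the larger spread of H19 and Meg3. Intervals at 95% on reads, and the floor of 3 reads, cover counting error only, since reads without molecular identifiers are not independent molecules.

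The members and the gene lists were chosen with earlier results of these data known. Named are all 8 members, the domain neighbours described, up to 4 genes per pathway list with the smallest adjusted p averaged over genotypes, and the genes most like each member by Pearson's r (mean log2 CPM of at least 1); other listed genes (Cdkn1c, Mirg, Dio3, Copg2, Zim1 and the single markers) were named after their values were seen. Hymai of the neighbours list was not analysed here. MicroRNA and promoter sequences are from RefSeq tables of GRCm38.p6. Figures were drawn with matplotlib 3.10.9.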

Additional observations from a re-analysis of the deposited data

Results flagged for a closer look

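In knockout kidneys at day 0, H19 in replicate 4 stood apart from the other 3 libraries, at 0.893 scaled CPM against 0.259, 0.304 and 0.309, with 15 reads against 4 or 5. Igf2 in the same library stood at 0.119 scaled CPM, which is 2 reads, against 0 in the other 3. These are the values of 8 genes in the single group of 4 libraries. For continuous, normally distributed values chance alone sets a library apart in about 1 in 20 such groups. That rate does not hold for counts near 0. For Igf2, with 0 in the other 3 libraries, any read at all sets a library apart.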

How the results depend on the processing

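H19 and Meg3 kept their direction and passed under each of the 22 alternatives in knockout kidneys (log2 fold change 2.003 to 4.41 and 1.97 to 3.33). In wild type kidneys both lost their call without day 0 replicate 1, which leaves 1 library, assumed to vary like the other groups; leaving out each library gave 2.09 to 4.16 for H19, 1.89 to 2.94 for Meg3, and 1 to 3 members called. For H19 the change with 0.1 CPM added was 3.51 in knockout and 4.35 in wild type kidneys, and with 1 CPM added 2.35 and 2.56. With library size only, Igf2r was 0.025 in knockout, -0.16 in wild type and -0.07 on average; Dlk1 (0.99) and Peg3 (0.94) in knockout and Mest (0.91) in wild type kidneys then passed. This scaling moves the median gene up by 0.37 to 0.38.

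Values near 0 changed sign. In wild type kidneys Peg3 was -0.0156 with edgeR, -0.0380 with DESeq2, -0.0045 with RLE factors and -0.0079 with the Y-linked covariate, and Plagl1 was -0.0024 with that covariate. Between genotypes at day 5, Meg3 was 0.0139 with edgeR and 0.0210 with DESeq2, Peg3 0.0250 with edgeR and 0.0229 with DESeq2, and Plagl1 -0.0179 with library size only. At day 0, Dlk1 was -0.20 with edgeR and -0.18 with DESeq2, Mest 0.0015 with RLE factors and H19 0.27 with 0.1 CPM added. The interaction of H19 was 0.74 with edgeR and 0.78 with DESeq2. The cause of these changes was not tested.

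Leaving out each library in turn gave -0.10 to 0.28 for Mest in knockout kidneys, and in wild type kidneys -0.64 to 1.07 for Dlk1, -0.32 to 0.34 for Peg3 and -0.13 to 0.20 for Plagl1. For knockout against wild type at day 5 it gave -1.27 to 0.61 for H19, -0.0147 to 0.17 for Igf2r, -0.72 to 0.64 for Meg3, -0.21 to 0.25 for Peg3 and -0.11 to 0.16 for Plagl1. At day 0 it gave -1.19 to 0.88 for H19, -0.22 to 0.0916 for Igf2r, -0.76 to 0.95 for Dlk1, -0.79 to 0.23 for Meg3 and -0.23 to 0.21 for Mest. For the interaction it gave -1.36 to 0.77 for H19, -0.0191 to 0.30 for Igf2r, -0.38 to 1.32 for Dlk1 and -0.43 to 0.93 for Meg3.

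Counts over all genes moved by over 1.5 times between genotypes and in the interaction, not between days. At day 5, where limma called 0, DESeq2 called 40, 1 CPM added 2, the Y-linked covariate 3, and leaving out each library 0 to 23 (23 without knockout day 5 replicate 2). At day 0, where limma called 3, DESeq2 called 375, RLE factors 6, library size only 15, 0.1 CPM added 8, no filter 9, the stricter filter 6, the covariate 17, only the compared groups 10, and leaving out each library 1 to 638 (638 without wild type day 0 replicate 1). For the interaction, where limma called 1, DESeq2 called 37, library size only 0, no filter 0, the covariate 2, and leaving out each library 0 to 107 (107 without wild type day 0 replicate 1). No alternative called a member in any of these 3 comparisons.

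Wild type day 0 has 2 libraries, so its values rest on few samples. Among the members, low reads limit Dlk1, Igf2 and, at day 0, H19. No paired analysis was possible because the labels give no replicate numbers that the groups share.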
